A study of Homo sapiens with 20 samples.

Results

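The LCE1 cluster comprises LCE1A, LCE1B, LCE1C, LCE1D, LCE1E and LCE1F, neighbouring genes of late cornified envelope proteins on human chromosome band 1q21. Its members were taken as the rows of the deposited count table that carry 1 of these 6 symbols, and all 6 were found among 20314 genes. The cluster was chosen by the log2 fold change of LCE1C at 7 days post-IR against untreated cells, one of the largest in these data, so the values of the members in that contrast are a description, without a test. Reads had been counted on 5 of the 6 genes in at least 1 library, LCE1D being at 0 in all 20. Only LCE1B, LCE1C and LCE1E had enough reads to enter the test across genes, LCE1C and LCE1E through the libraries at 7 days alone.

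RNA-seq was performed on U2-OS cells, a human osteosarcoma line with functional p53, in 4 groups of 5 libraries. Untreated cells were compared with cells at 1.5 h and at 7 days after ionizing radiation (IR) of 20 Gy, called the first and second phase, and with non-irradiated cells in which an shRNA lowered NFKBIA. NFKBIA encodes IκBα, the inhibitor that holds NF-κB in the cytoplasm. The study describes this shRNA as inducible by doxycycline, and its methods name doxycycline-treated cells with a scrambled shRNA as controls. The labels name neither a control shRNA nor doxycycline for the untreated group, and all groups derive from a single cell line. The study calls the 5 libraries of a group biological replicates, and whether each came from a culture of its own is not stated.

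Libraries held 22535659 to 40390961 counted reads. NFKBIA had a log2 fold change of -1.36 in the knockdown and of 1.40 at 1.5 h against untreated cells, and CDKN1A, the p53 target that encodes p21, had one of 1.61 at 1.5 h and 1.86 at 7 days, the directions that the labels imply. At 7 days NFKBIA had one of -0.018 (adjusted p = 0.886 from edgeR), whereas the study describes its transcription as silenced in senescence. Untreated replicate 5, the shallowest library, stood apart from the rest of its group, with a median Pearson r of 0.979 to the other untreated libraries against 0.990 to 0.994 for those and 0.996 to 0.997 in all other groups (log2(CPM + 0.1), 14992 genes). Untreated replicates 1 to 4 were sequenced on lane 2, replicate 5 on lane 3 with 3 libraries at 1.5 h, the other 2 at 1.5 h on lane 4 with 2 at 7 days, the other 3 at 7 days on lane 5 with 1 knockdown library, and the last 4 knockdown libraries on lane 6. Untreated and 7 days libraries thus shared no lane. Of the bone markers, COL1A1, SPARC and RUNX2 had 14006 or more reads in every group, whereas SP7, IBSP and TWIST1 had 5 or fewer per group. At 7 days SPP1 (osteopontin) and ALPL (alkaline phosphatase) were called higher, with log2 fold changes of 2.65 and 0.77, and SPARC lower, with -0.75, out of 7 bone markers tested of 10 listed, where 16.7% of all genes were higher and 14.4% lower.

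The cornified envelope is the layer of cross-linked protein that replaces the plasma membrane of keratinocytes as they die at the skin surface. Late cornified envelope proteins are small, rich in cysteine and glycine, and are cross-linked into it by transglutaminases at a late stage. Their genes lie in the epidermal differentiation complex, between the S100 genes, beside those of involucrin, loricrin and the small proline-rich proteins, and are known for expression in terminally differentiated epidermis, not in bone. LCE1 genes have also been described as targets of p53.

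The upstream sequences of the members are shown first because 4 of them share stretches that few other genes hold. RefSeq gives a start site for LCE1A, LCE1C, LCE1D, LCE1E and LCE1F in the table used here, on build GRCh38.p14, and the 250 bases before it are printed for LCE1C, LCE1D, LCE1E and LCE1F, 5′ to 3′ on the strand of the gene. No start site was given for LCE1B, so its upstream sequence was searched neither for shared runs nor for motifs. Capitals mark the runs of 10 or more bases that all 4 windows have in common.
LCE1C: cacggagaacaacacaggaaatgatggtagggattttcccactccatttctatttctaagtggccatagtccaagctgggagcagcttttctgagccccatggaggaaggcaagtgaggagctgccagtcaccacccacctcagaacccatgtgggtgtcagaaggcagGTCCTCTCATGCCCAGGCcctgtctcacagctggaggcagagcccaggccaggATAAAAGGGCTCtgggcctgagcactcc
LCE1D: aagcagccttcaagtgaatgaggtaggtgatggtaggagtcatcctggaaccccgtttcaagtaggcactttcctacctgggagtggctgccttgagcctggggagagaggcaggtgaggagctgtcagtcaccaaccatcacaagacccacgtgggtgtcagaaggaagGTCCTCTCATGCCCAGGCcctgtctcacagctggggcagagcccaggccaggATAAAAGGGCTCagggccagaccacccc
LCE1E: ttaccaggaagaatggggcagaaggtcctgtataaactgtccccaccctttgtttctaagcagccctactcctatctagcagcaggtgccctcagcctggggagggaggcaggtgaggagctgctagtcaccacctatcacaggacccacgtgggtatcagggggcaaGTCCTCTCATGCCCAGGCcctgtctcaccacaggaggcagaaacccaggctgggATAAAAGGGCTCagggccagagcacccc
LCE1F: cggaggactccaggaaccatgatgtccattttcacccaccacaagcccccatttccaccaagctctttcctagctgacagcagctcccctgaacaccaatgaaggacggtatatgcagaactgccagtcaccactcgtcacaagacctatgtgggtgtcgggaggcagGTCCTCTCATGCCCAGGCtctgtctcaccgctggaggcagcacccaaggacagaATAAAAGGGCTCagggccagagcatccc
The windows are chr1:152806652-152806901 for LCE1C, on the minus strand, and, on the plus strand, chr1:152796471-152796720 for LCE1D, chr1:152786007-152786256 for LCE1E and chr1:152774890-152775139 for LCE1F.

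The first run, GTCCTCTCATGCCCAGGC, was found in 4 of 35116 windows of this length, those of LCE1C, LCE1D, LCE1E and LCE1F. The second, ATAAAAGGGCTC, was found in 6, the other 2 being CSKMT and LCE3C. In a global alignment the 4 windows were identical in 67.7 to 74.9% of aligned positions, and that of LCE1A matched them in 45.3 to 48.3%. Motifs were searched on both strands. The string ATAAAAG, which lies within the second run and was picked after the sequences had been seen, stood in all 4 windows and in 4.25% of all windows. TATAAA stood in those of LCE1A and LCE1E and in 10.7% of all. A consensus half-site of p53 was matched in LCE1E (5.57% of all windows) and the NF-κB consensus in LCE1C (9.96%). The windows of LCE1D, which had no read, and of LCE1C, which had 292 reads at 7 days, were identical in 74.6% of aligned positions.

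LCE1 reads were few outside the second phase (plot of reads by library). In sum over the members the untreated libraries had 17, 9, 5, 11 and 3 reads, those at 1.5 h 26, 8, 15, 5 and 16, and those of the knockdown 15, 16, 9, 13 and 11, in the order of replicates 1 to 5. At 7 days the libraries had 413, 458, 465, 449 and 392 reads. Scaled to CPM (reads relative to library size, with TMM factors), the level was 13.6 ± 1.07 at 7 days, 0.412 ± 0.0885 in the knockdown, 0.383 ± 0.202 at 1.5 h and 0.277 ± 0.159 in untreated cells (SD, n = 5 each). The libraries at 7 days lay above all others, and the other 3 groups overlapped. That every library at 7 days exceeded every untreated one held for 24.4% of all genes tested, and it held for 31.9% against 1.5 h and for 30.6% against the knockdown. In bulk RNA, more cells with LCE1 transcripts and more transcripts per cell cannot be told apart.

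**Figure D1:**
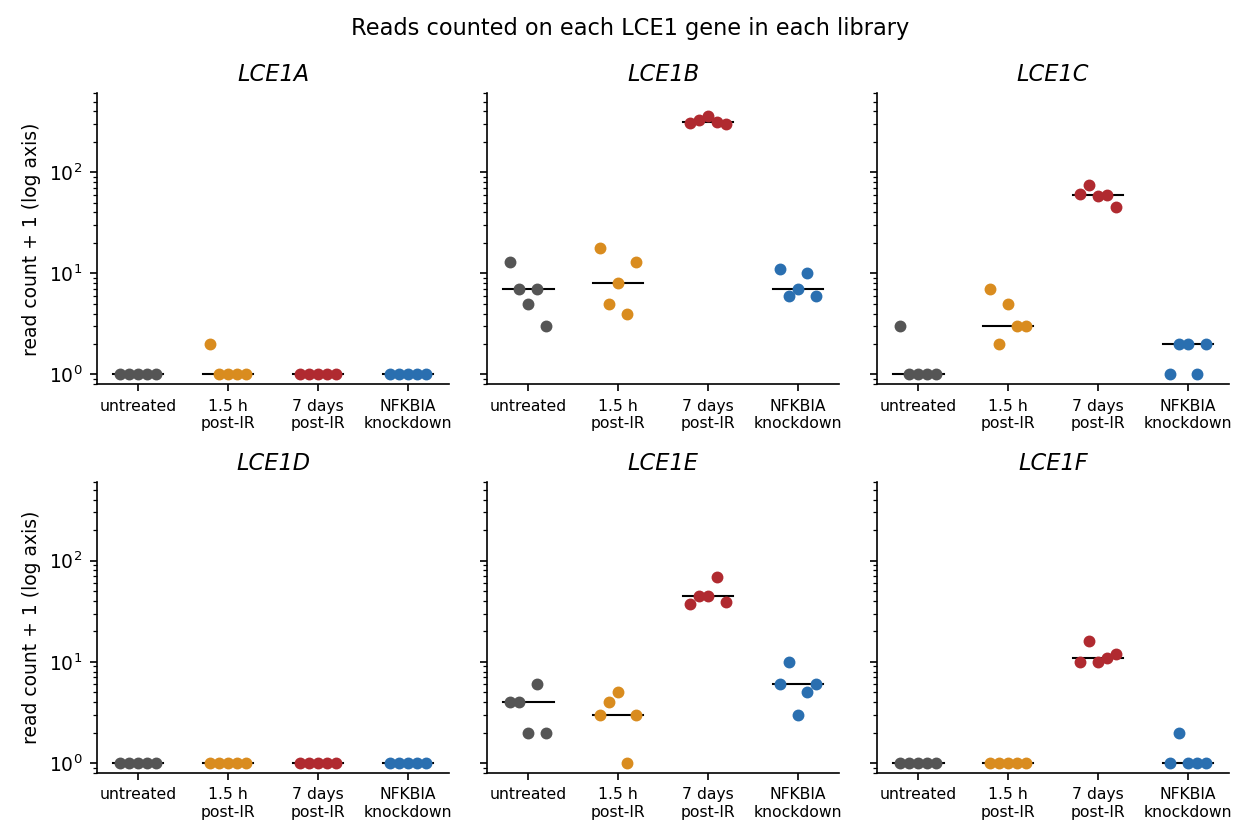
Reads counted on each LCE1 gene, plus 1 and on a log axis, in the 5 libraries of each group (points, in replicate order from left to right) with the group median (line). LCE1B, LCE1C, LCE1E and LCE1F stand apart at 7 days post-IR, LCE1A has 1 read in all and LCE1D none.

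LCE1B (ENSG00000196734) carried most of the reads. It had 12, 6, 4, 6 and 2 reads in untreated libraries, 17, 4, 7, 3 and 12 at 1.5 h, 308, 326, 355, 313 and 299 at 7 days, and 10, 5, 6, 9 and 5 in the knockdown. The gene was thus read in every library, and the groups other than 7 days overlapped. Summed over libraries and scaled, the level at 7 days was 53.7 times that of untreated cells (95% counting interval 37.5 to 79.9), 41.6 times that at 1.5 h and 44.5 times that of the knockdown. Counting intervals cover counting error only.

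LCE1C (ENSG00000197084) had 2, 0, 0, 0 and 0 reads in untreated libraries and 6, 1, 4, 2 and 2 at 1.5 h. At 7 days it had 60, 73, 57, 58 and 44 reads, and in the knockdown 0, 1, 1, 0 and 1. Untreated replicate 1 alone held both untreated reads, and at 1.5 h every library had at least 1. The ratio of 7 days to untreated was 147 with a counting interval from 40.3 to 1219, since its denominator is 2 reads. Against 1.5 h it was 21.8 (12.98 to 39.4). By fitted log2 fold change at 7 days, LCE1C (6.82) had rank 4 of the 14992 genes tested, with PDE6C (7.57), the cone phosphodiesterase subunit, at rank 2 and PYHIN1 (6.94) at rank 3, the latter of the interferon-inducible HIN-200 family. TREM2 (6.65), a receptor of myeloid cells, and the lipase-related PNLIPRP3 (6.62) came next. LCE1B followed at rank 11 (5.72), and LCE1E at rank 54 (4.09). Without untreated replicate 1 the value of LCE1C was 8.91, and without untreated replicate 5 it was 6.66. These ranks rest on the contrast by which the cluster was picked.

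LCE1E (ENSG00000186226) had 3, 3, 1, 5 and 1 reads in untreated libraries, 2, 3, 4, 0 and 2 at 1.5 h, 36, 44, 44, 68 and 38 at 7 days, and 5, 9, 2, 4 and 5 in the knockdown. Its 7 days libraries lay above all others, where 24.4 to 31.9% of all genes tested did so against single groups. The ratio to untreated was 17.8 (10.2 to 34.0). The ratio to the knockdown was smaller, 8.96 (5.92 to 14.1).

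LCE1F (ENSG00000240386) had no read in untreated cells or at 1.5 h and 1 in the knockdown, in replicate 2. At 7 days it had 9, 15, 9, 10 and 11 reads. Taking 3 reads over the group as the limit that a count of 0 allows, the level at 7 days was at least 18.1-fold higher than in untreated cells and at least 20.1-fold higher than at 1.5 h. With the counting error of the 54 reads included, the lower limits were 14.2 and 15.8. LCE1F was too low to enter the test across genes.

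LCE1A (ENSG00000186844) had a single read, in replicate 1 at 1.5 h, and LCE1D (ENSG00000172155) had none. At 7 days their counts of 0 allow a level of up to 0.0187 CPM over the group, which is below the 0.343 ± 0.0998 CPM of LCE1F (SD, n = 5). In the order of genes along the chromosome LCE1D lies between LCE1E and LCE1C, both of which had reads at 7 days, and LCE1A is next to LCE1B at the end of the cluster.

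Lane and time point could be held apart only in part. Within lane 4 the 2 libraries at 7 days had 634 reads of LCE1B against 15 in the 2 at 1.5 h, a scaled ratio of 45.4, and 133 of LCE1C against 4, a ratio of 35.7. Within lane 5 the 3 libraries at 7 days had 967 reads of LCE1B and 159 of LCE1C, and knockdown replicate 1 had 10 and 0. With the lane as a factor, a fit in which untreated replicate 5 alone links untreated and irradiated cells, the log2 fold changes at 7 days were 6.87 for LCE1B, 9.85 for LCE1C and 5.998 for LCE1E.

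The members differed among themselves in level at 7 days (plot of levels per length). Of the 2177 LCE1 reads, LCE1B took 73.5% (exact 95% interval 71.6 to 75.4%), LCE1C 13.4% (12.01 to 14.9%), LCE1E 10.6% (9.31 to 11.9%) and LCE1F 2.48% (1.87 to 3.22%). LCE1A and LCE1D had 0 of 2177, which allows a share of up to 0.138% if 3 reads are taken as the limit for a count of 0 (exact upper limit 0.169%). The share of LCE1B lay between 69.7 and 76.3% in single libraries. Since genes differ in length, levels were compared as CPM per kilobase of the gene width in the deposited table, which were 8.81 ± 0.659 for LCE1B, 2.63 ± 0.473 for LCE1C, 1.11 ± 0.293 for LCE1E and 0.573 ± 0.167 for LCE1F (SD, n = 5). Per kilobase LCE1B exceeded LCE1C 3.35-fold and LCE1C exceeded LCE1E 2.37-fold, without overlap of libraries. Before scaling by width the libraries of LCE1C (1.575 to 2.397 CPM) and LCE1E (1.053 to 2.069 CPM) overlapped. Their gap thus depends on the width, whose gene models are not stated. LCE1E and LCE1F overlapped in range per kilobase, although LCE1E was the higher in 5 of 5 libraries.

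**Figure D2:**
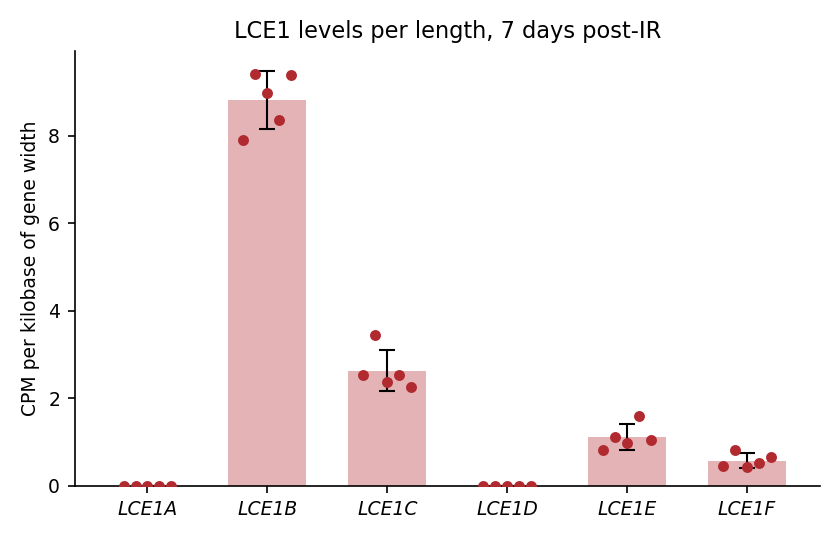
Level of each LCE1 gene at 7 days post-IR in CPM per kilobase of gene width (bars, mean of 5 libraries, with SD, and points, single libraries). LCE1B is the highest at 8.81, followed by LCE1C at 2.63, and LCE1A and LCE1D are at 0.

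Between the libraries at 7 days, LCE1B varied least, with a coefficient of variation of 7.48% where counting alone would give 5.59%. It was 17.99% for LCE1C (13.1% from counting), 26.5% for LCE1E (14.7%) and 29.1% for LCE1F (30.4%). Exact repeats between members were few, whereas repeats with mismatches, and the handling of shared reads by the counting, were not tested. In the transcripts of GENCODE 29, 1.57% of 100-base stretches of LCE1C, 0.628% of LCE1E and 0.192% of LCE1B occurred in another gene as well, and none of those of LCE1A, LCE1D and LCE1F did, whose transcripts there are shorter than the width in the deposited table for LCE1A and LCE1F.

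The first phase was compared with untreated cells to ask whether any member had moved by 1.5 h. The untreated libraries are also those of the contrast by which the cluster was chosen, so that tests of LCE1C against them are not independent of that choice. Low untreated reads favour both that choice and a rise at 1.5 h, so the p values of LCE1C against untreated cells are descriptive. LCE1C also entered the test only through the libraries at 7 days. At 1.5 h LCE1C had more reads, with 15 reads against 2 and 0.0818 ± 0.0498 against 0.0119 ± 0.0266 CPM (SD, n = 5). Its log2 fold change was 2.43 ± 0.78 (SE, adjusted p = 0.0319 in edgeR's quasi-likelihood model, Benjamini-Hochberg over 14992 genes), the exact permutation test of CPM gave p = 0.0317 (two-sided, n = 5 against 5, smallest possible p 0.00794), and the ratio of summed reads had a counting interval from 1.57 to 60.8. All 5 libraries at 1.5 h lay above the untreated median, but the groups overlapped through untreated replicate 1. By the thresholds used here, a log2 fold change over 0.5 in size and an adjusted p under 0.05, 3.66% of all genes were called in this comparison, 2.08% as higher and 1.57% as lower, and 1 of the 3 members tested was.

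This call rests on few reads. It was lost without untreated replicate 2, 3 or 4 or without replicate 1 or 3 at 1.5 h, each taken alone (log2 fold change 2.07 to 4.52 and adjusted p 0.00634 to 0.0874 over single libraries left out), in a fit of these 2 groups only (adjusted p = 0.119) and with the lane as a factor (adjusted p = 0.124), all from edgeR. Within lane 3 the 3 libraries at 1.5 h had 11 reads of LCE1C and untreated replicate 5 had 0. LCE1B had a log2 fold change of 0.36 ± 0.40 (SE, adjusted p = 0.580 from edgeR) and LCE1E one of -0.37 ± 0.63 (adjusted p = 0.728 from edgeR), both within the spread of libraries. Their exact permutation tests gave p = 0.556 and p = 0.548. No read of LCE1F was counted in either group.

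In the knockdown of NFKBIA no tested member passed the threshold against untreated cells, where 12.7% of all genes did, 5.18% as higher and 7.53% as lower. With only 3 members tested, this count cannot be told apart from that share. The log2 fold change was 0.27 ± 0.42 for LCE1B (adjusted p = 0.640 from edgeR), 0.51 ± 1.05 for LCE1C (adjusted p = 0.730) and 0.96 ± 0.53 for LCE1E (adjusted p = 0.160, SE for each). LCE1E had 25 reads against 13, a ratio of 1.99 with a counting interval from 0.979 to 4.23, and 4 of 5 knockdown libraries above the untreated median. The exact permutation test gave p = 0.111 for LCE1E, p = 0.460 for LCE1B and p = 0.524 for LCE1C, of which LCE1C had 3 reads in all. An increase of LCE1C by up to 18.6-fold lies within its counting interval, so that at this depth only large changes of LCE1C were detectable. For LCE1B the ratio was 1.206 with a counting interval from 0.719 to 2.03.

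The knockdown was also set against 1.5 h, both being conditions known to act on NF-κB, and LCE1C was lower in the knockdown. It had 3 reads against 15, a ratio of 0.230 (counting interval 0.0426 to 0.812), with a log2 fold change of -1.92 ± 0.73 (SE, adjusted p = 0.0401 from edgeR) and p = 0.0317 in the exact permutation test. None of the 5 knockdown libraries exceeded the median at 1.5 h. Of all genes 14.1% were called in this comparison, 7.6% as lower and 6.54% as higher. The call was lost with DESeq2 (adjusted p = 0.0507) and with the lane as a factor (adjusted p = 0.340, edgeR). It was also lost without replicate 1 or 3 at 1.5 h or without knockdown replicate 1, 2, 3 or 4, with adjusted p from 0.0509 to 0.125 in edgeR, and over all single libraries left out it ran from 0.0251 to 0.125. LCE1E went the other way, with a log2 fold change of 1.33 ± 0.55 (SE, adjusted p = 0.0573 from edgeR) and 25 reads against 11, which missed the threshold. Its exact permutation test gave p = 0.0238, and its adjusted p over all alternatives ran from 0.0279 to 0.389. In LCE1B the ratio was 0.935 (counting interval 0.581 to 1.495, adjusted p = 0.878 from edgeR). In all, 13 exact tests were made on single members, and their p values are unadjusted.

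Among the 12 late cornified envelope genes outside the LCE1 cluster, only LCE5A, at the far end of the LCE genes, had more than 10 reads in any group. It had 2, 1, 0, 1 and 1 reads in untreated libraries, 2, 0, 2, 2 and 3 at 1.5 h, 27, 17, 22, 19 and 33 at 7 days, and 3, 3, 3, 1 and 4 in the knockdown. All libraries at 7 days lay above all others, where 24.4 to 31.9% of all genes tested did so against single groups. The ratio of 7 days to untreated was 23.8 (counting interval 9.90 to 74.5). Like LCE1C and LCE1E, LCE5A passed the filter on low counts through the libraries at 7 days alone, so that no test is given for that contrast. In the knockdown its value of 1.42 missed the threshold (adjusted p = 0.0913 from edgeR), although all 5 libraries lay above the untreated median and the exact permutation test gave p = 0.0238. Of the 11 others, the members of LCE2, LCE3, LCE4 and LCE6, 6 had no read in any library, and none had more than 3 at 7 days.

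Along the complex from S100A10 to S100A1, 55 genes other than LCE1 were in the table, and 34 of these had fewer than 5 reads in the 5 libraries at 7 days (plot of genes in chromosomal order). Of the 15 that passed the filter on low counts, LCE5A, IVL, PRR9 and S100A14 did so only with the libraries at 7 days and are given without a test in this contrast. Of the 11 others none rose and 4 fell at 7 days (S100A10, LOR, S100A5 and S100A4). In this comparison 31.1% of all genes were called, 16.7% as higher and 14.4% as lower, and without the 342 genes that passed the filter only with the libraries at 7 days 15.2% were higher and 14.7% lower. All libraries at 7 days lay above all untreated libraries in 6 of the 55, namely LCE5A, CRCT1, IVL, SPRR2D, PRR9 and S100A9. Among the 15 that passed the filter these were 3 (LCE5A, IVL and PRR9), or 20%, against 24.4% of all genes tested. All 3 had passed it only with the libraries at 7 days, where they were high, so these shares cannot be compared. None of the 11 others was among the 6. The nearest genes on either side of the LCE1 cluster, LCE4A, KPRP, LCE6A and SMCP, had 0 to 8 reads at 7 days.

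**Figure D3:**
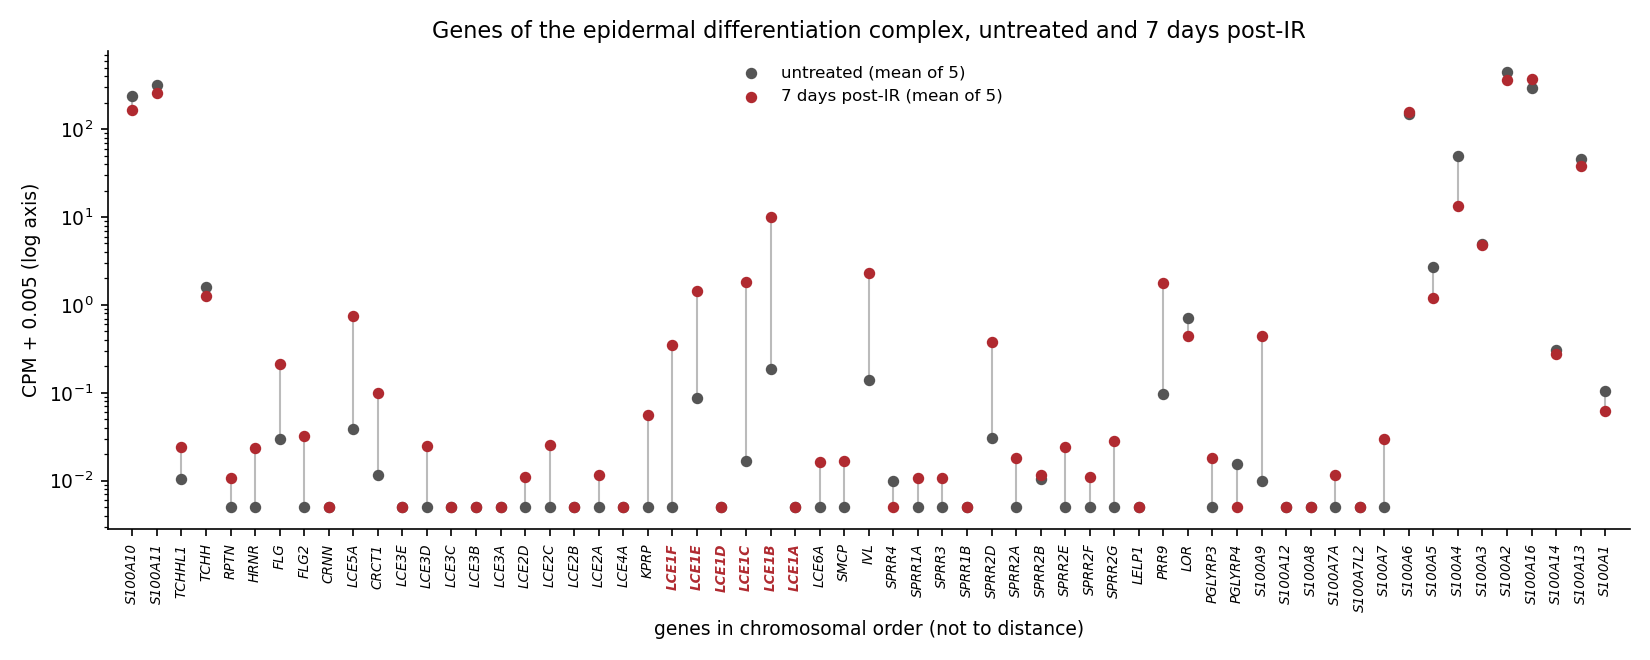
Mean CPM plus 0.005, on a log axis, of 61 genes in their order along the chromosome (not to distance), in untreated cells (grey) and at 7 days post-IR (red), each the mean of 5 libraries. LCE1 genes are in red letters, and LCE1B at 10.0 CPM is the highest of the genes between TCHH and S100A6 at 7 days.

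Of 32 other genes of the cornified envelope 10 passed the filter, IVL and PRR9 only with the libraries at 7 days. Of the 8 others 3 rose at 7 days (CSTA, PPL and TGM5) and 4 fell (CDSN, CNFN, LOR and TGM1), where 15.2% of all such genes were higher and 14.7% lower. PRR9, a proline-rich gene of the same complex, had 14 reads in the untreated libraries and 277 at 7 days in sum (log2 fold change 4.27), and IVL, which encodes the scaffold protein involucrin, 20 and 364 (4.15). CDSN, of the adhesive corneodesmosin, had 54 and 10 (-2.36). PPL, of the plakin periplakin, had a log2 fold change of 2.30. The adjusted p of CDSN from edgeR was 0.000211. At 1.5 h 2 of the list rose and 1 fell (2.08% and 1.57% of all genes), with 0 to 2 in each direction over the alternatives, and in the knockdown 2 rose and 1 fell (5.18% and 7.53% of all genes), with 2 to 3 and 1 to 2 over the alternatives. LOR, of loricrin, the main protein of the envelope, fell at 7 days, and TGM1, of the transglutaminase that cross-links it, did so too, so that the genes tested did not move one way. Of all 32 genes, 15 had no read in untreated cells and 4 had none at 7 days.

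Markers of keratinocytes were followed because this is the cell type in which LCE1 is known. Of 26 markers 11 passed the filter, TP63 (32 reads untreated, 63 at 7 days) only with the libraries at 7 days. Of the 10 others 4 rose at 7 days (GRHL3, KLK5, KRT15 and SBSN) and 3 fell (KRT14, KRT5 and SFN), against 15.2% higher and 14.7% lower over all such genes. GRHL3, a transcription factor of epidermal differentiation, had 3.42 ± 0.16, KRT15, a keratin of the basal layer, 2.90 ± 0.09, and SBSN, of the suprabasal protein suprabasin, 2.77 ± 0.18 (SE). KRT14 and KRT5, the keratin pair of the basal layer, had -2.70 ± 0.17 and -1.21 ± 0.33 (SE). The adjusted p values from edgeR, in this order, were 1.84e-13, 3.53e-16, 1.77e-11, 1.57e-11 and 0.00338. The summed level of the list was 672 to 1084 CPM in untreated libraries, 742 to 969 at 1.5 h, 710 to 773 at 7 days and 270 to 338 in the knockdown, and most of it was KRT17 and SFN. KRT1, DSG1 and CASP14, which define differentiated epidermis, had 0 to 3 reads per group, and KRTDAP 2 to 7, whereas KRT10, the partner of KRT1, had 2578 to 3909 and a log2 fold change of -0.30 at 7 days, which was not called. Of the markers too low to be tested, DSG3, a desmosomal cadherin, had 3 reads in untreated cells and 62 at 7 days in sum, KRT6A 15 and 45, ZNF750 2 and 19, PKP1 0 and 15, and KRT2 1 and 12, whereas KLK7 had 24 and 8 and KRT6B 9 and 6. Of the 26 markers 1 had no read at 7 days and 6 had none in untreated cells.

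The S100 genes that border the complex encode small calcium-binding proteins. Of 17 listed, 10 passed the filter, S100A14 only with the libraries at 7 days. Of the 9 others none rose at 7 days and 3 fell (15.2% and 14.7% over all such genes), S100A4 with a log2 fold change of -1.91, S100A5 with -1.18 and S100A10 with -0.52 (adjusted p = 2.42e-11, 5.62e-07 and 1.59e-05 from edgeR). Under 2 alternatives an S100 gene was called higher at 7 days, as given in the closing section.

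Of 25 p53 targets 24 were tested. At 7 days 22 rose and none fell (median log2 fold change 1.14), and at 1.5 h 16 rose and none fell, with a median of 0.85 against -0.03 over all genes (plot of log2 fold changes by list). Over all genes 16.7% were higher at 7 days and 2.08% at 1.5 h. In the knockdown 3 rose (GADD45A, GDF15 and RRM2B) and none fell, at a median of 0.23, where 5.18% of all genes were higher. Adding the lane as a factor gave 12 higher and 2 lower. Against 1.5 h 14 fell in the knockdown, where 7.6% of all genes did. GDF15, a secreted stress factor, had a log2 fold change of 2.33 at 1.5 h and 3.86 at 7 days (adjusted p = 1.68e-09 and 3.55e-14 from edgeR), CDKN1A had 1.61 and 1.86 (5.86e-15 and 6.38e-17), and FAS, the death receptor, 1.04 and 1.82 (1.71e-12 and 2.97e-17). The comparisons share the untreated libraries, and the lists were written with earlier results of these data known.

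**Figure D4:**
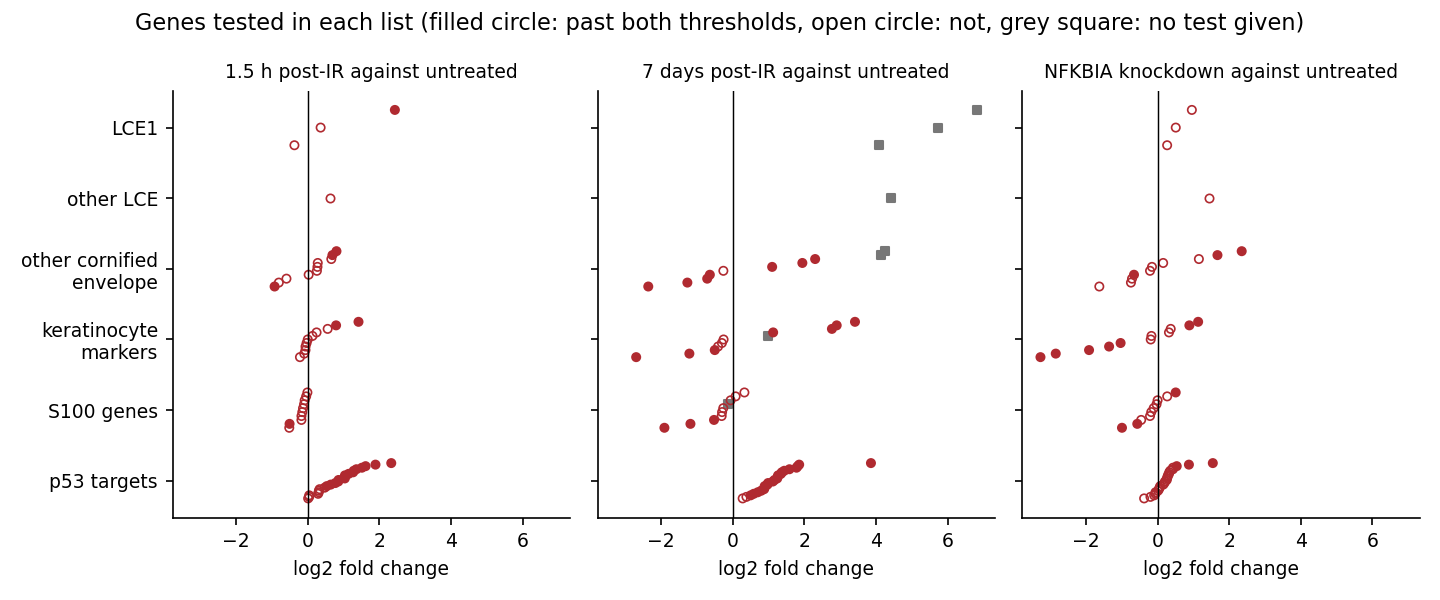
Log2 fold changes of the genes tested in each list at 1.5 h post-IR, 7 days post-IR and in the NFKBIA knockdown, each against untreated cells (n = 5 libraries per group), with filled circles for genes past both thresholds, open circles for the others and grey squares at 7 days for LCE1 and for genes that passed the filter only with those libraries, where no test is given. LCE1C is the only filled point of its row at 1.5 h, at 2.43, and the p53 targets lie above 0 at 7 days.

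The genes whose log2 CPM most resembled that of LCE1C over the 20 libraries were PDE6C (Pearson r = 0.982), ARL14 (0.979), RND3 (0.978), SLC30A3 (0.978) and IQCG (0.977). Those most like the summed LCE1 reads were CMBL (r = 0.984), CD82 (0.984), PYHIN1 (0.982), ANXA4 (0.980) and SP140 (0.980). ARL14 and RND3 encode small GTPases, SLC30A3 a zinc transporter, CD82 a tetraspanin and ANXA4 an annexin. The points are 4 groups of 5 libraries, and each of these 10 genes had its highest group mean at 7 days. PDE6C had 26, 29, 17, 24 and 19 reads at 7 days and 0 in all untreated libraries. CMBL, in contrast, was well expressed throughout, with 15.1 ± 1.002 CPM in untreated cells and 51.1 ± 0.42 at 7 days (SD, n = 5).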

How the data were processed

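Gene counts of 20 RNA-seq libraries were analysed. The methods describe Trizol extraction, stranded libraries of mRNA and single-read Illumina sequencing. The submitters' processing notes name bcl2fastq, Trimmomatic, STAR 2.4.2a and the genome build hg19. The counting tool, its annotation and its strand setting are not given in the sources used here, and the gene models behind the width column are not stated. The authors deposited raw read counts per gene, whole numbers without normalization, for 20314 genes, of which 1679 have no symbol. Upstream sequences and gene order came from RefSeq on GRCh38.p14, and no coordinates of the hg19 files were converted.

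In R 4.3.3, edgeR 4.0.16 was used with TMM factors and filterByExpr (minimum count 10), which kept 14992 genes. A quasi-likelihood model with a term per group was fitted to all libraries, with Benjamini-Hochberg adjustment over all genes tested. A gene was called with a log2 fold change over 0.5 in size and an adjusted p under 0.05. Exact permutation tests of CPM were two-sided. Intervals (95%) of count ratios and shares are exact and cover counting error only. A level is limited by 0.00457 CPM for a count of 0 in all 20 libraries (3 reads over the summed depth).

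The members, the other gene lists, which were written from general knowledge, and the tests were chosen with earlier results of these data known. Besides the members, the text names the 3 genes with the largest called change at 7 days in each list, late cornified envelope genes with over 10 reads in a group, genes most like LCE1C or the LCE1 sum (log2 CPM, prior count 2), the neighbours of LCE1C by rank, and NFKBIA and CDKN1A. Further members of the lists and of the region are named where they were counted, and these were picked after their values were seen. No 2 libraries of a group agreed within sampling noise (lowest chi-square per degree of freedom 1.75). Alternatives were RLE factors, DESeq2 1.42.0, no filter on low counts, a fit of the groups compared, the replicate number or lane as a factor, and each library left out in turn. The test was first tried on simulated data. Figures were drawn with matplotlib 3.10.9.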

Additional observations from a re-analysis of the deposited data

Results flagged for a closer look

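In 19 groups of 5 values with any read, the highest or lowest library of the LCE1 members and LCE5A was compared with the rest by Dixon's test, and 4 were flagged. Chance flags about 1 in 20 groups of continuous values, a rate that does not apply to 3 of the 4, in which a single library has any read and the rest are at 0. LCE1C in replicate 2 at 7 days had 2.397 CPM (73 reads), where the next library had 1.76. LCE1C in untreated replicate 1 had 0.0594 CPM (2 reads) and the others of its group 0. LCE1A in replicate 1 at 1.5 h had 0.0254 CPM and LCE1F in knockdown replicate 2 had 0.0303 CPM, each from 1 read with all other libraries of the group at 0.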

How the results depend on the processing

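Scaling by RLE factors changed no call of a member in any tested comparison. The value of LCE1C at 1.5 h against untreated fell short of the threshold in a fit of only these groups (2.45 on the log2 scale, adjusted p = 0.119 from edgeR) and with the lane as a factor (4.77, adjusted p = 0.124 from edgeR), and leaving out single libraries it ranged from 2.07 to 4.52. Against 1.5 h, LCE1C in the knockdown missed it with DESeq2 (-2.13, adjusted p = 0.0507), with the lane (-3.70, adjusted p = 0.340 from edgeR) and with the replicate number as a block (-1.93, adjusted p = 0.0542 from edgeR), and ranged from -2.17 to -1.56 over single libraries left out. LCE1E in that comparison passed it with DESeq2 (1.38, adjusted p = 0.0358) and in a fit of only these groups (1.33, adjusted p = 0.0413 from edgeR), and ranged from 1.03 to 1.63 over single libraries left out, past the threshold without replicate 3 at 1.5 h or without knockdown replicate 3. Uncalled values changed sign for LCE1E at 1.5 h (0.74 with the lane, -0.70 to 0.00635 over libraries left out) and for LCE1B, at 1.5 h (-0.000979 to 0.75 over libraries left out) and in the knockdown against 1.5 h (0.40 with the lane, -0.30 to 0.27 over libraries left out, above 0 also at 0.0638 and 0.0277). The cause of these changes was not tested.

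With the lane as a factor, a fit that leans on untreated replicate 5, the log2 fold changes at 7 days were 6.87 for LCE1B, 9.85 for LCE1C and 5.998 for LCE1E. Leaving out single libraries, that of LCE1C ranged from 6.48 to 8.91, the highest without untreated replicate 1. Of the lists at 7 days, the lane left 0 late cornified envelope genes outside LCE1 called higher, 2 other cornified envelope genes lower, 2 S100 genes higher and 3 keratinocyte markers higher, and in the knockdown it gave 12 p53 targets higher and 2 lower. Without a filter on low counts 12 other cornified envelope genes, 1 S100 gene and 10 keratinocyte markers were called higher, more genes being tested.

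Replicate numbers did not pair the libraries. Deviations of same-numbered libraries correlated at -0.254 to 0.123, over 0.1 in 2 of 30 pairs, and the best match had the same number in 4 of 30. Besides the comparison above, the block changed no call of a member. Untreated cells had 2 reads of LCE1C in all, so that depth limits every ratio to them.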
